A study of Rattus norvegicus with 6 samples.

Results

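Ribosomal protein genes of the rat ovary were followed on 6 Affymetrix rat genome arrays, through newborn ovaries, 4-day-old ovaries and newborn ovaries kept in culture. Members were the probe sets for which the platform annotation gave exactly 1 symbol, of the form Rpl or Rps and a number, Rplp0 to Rplp2, or Rpsa, with the S6 kinases left out. This gave 39 genes of 4737 with a symbol of their own on the array, on 58 of its 8799 probe sets: 26 of the large subunit, 12 of the small subunit and Rplp0 of the stalk. The filter on dim probe sets was passed by 57 of the 58, and the one that failed was a second probe set of Rpl3l. A further 46 probe sets listed a ribosomal protein among several symbols, or a ribosomal protein copy, and stood outside the rule.

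The cultured group held whole ovaries removed from female rat pups on the day of birth and kept for 7 days on floating filters in serum-free medium with albumin, transferrin, insulin and ascorbic acid. The P4 group held ovaries of female pups taken on day 4, and the P0 group held ovaries of female pups taken on the day of birth. No strain, genotype or hormone treatment is given for any sample. Progesterone is named as a treatment in the design text of the series and in none of the sample labels, so whether a cultured pool received it is unsettled. Each array carried total RNA from a separate pool of about 20 ovaries, with 2 arrays a group, so p-values rest on the spread between pools. By the chip identifiers the 2 arrays of each group lay in different chip batches. In fits without a batch block, that spread therefore includes any difference between batches. With 2 arrays against 2, an exact permutation test of a single value cannot go below p = 0.33.

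Ribosomal proteins build the large and small subunits of the ribosome around ribosomal RNA, and every growing cell makes them in matched amounts. Most of their mRNAs begin with an unbroken stretch of C and T, the terminal oligopyrimidine tract, through which growth signals acting on mTOR set how much of the mRNA is translated. In the newborn rat ovary, oocyte nests break up into primordial follicles during the first days of life, and somatic cells and oocytes then begin to grow. An array of whole-ovary RNA cannot tell fewer cells of a type from less RNA per cell.

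The start regions of members that the results turn on are shown for the tract that many of these genes carry. Each line gives 40 bases before the annotated start and 20 from it, 5′ to 3′, from the RefSeq promoter table of build GRCr8. Capitals mark runs of 8 or more C or T, and the windows of Rps3a and Rps27l hold none.
Rpl19, chr10:83519024-83519083, plus strand: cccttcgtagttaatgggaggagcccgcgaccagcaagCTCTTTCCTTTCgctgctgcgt
Rpl27a, chr1:172974533-172974592, plus strand: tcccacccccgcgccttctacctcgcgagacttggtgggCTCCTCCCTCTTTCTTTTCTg
Rpl31, chr9:49143071-49143130, plus strand: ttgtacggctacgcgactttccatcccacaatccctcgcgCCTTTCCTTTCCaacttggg
Rpl35, chr3:43165902-43165961, minus strand: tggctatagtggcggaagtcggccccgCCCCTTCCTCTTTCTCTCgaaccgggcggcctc
Rpl35a, chr11:81235002-81235061, minus strand: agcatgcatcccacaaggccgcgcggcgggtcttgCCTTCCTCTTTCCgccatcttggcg
Rplp0, chr12:46718371-46718430, minus strand: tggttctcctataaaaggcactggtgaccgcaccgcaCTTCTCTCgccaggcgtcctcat
Rps3a, chr2:173827023-173827082, minus strand: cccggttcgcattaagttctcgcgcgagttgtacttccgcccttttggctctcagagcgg
Rps27l, chr8:76443618-76443677, plus strand: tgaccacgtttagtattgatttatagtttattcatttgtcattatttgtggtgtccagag
The genes Rpl19, Rpl27a and Rpl31 were called lower in cultured ovaries, as was a second probe set of Rpl35, and Rpl35a had the most negative change at P4. Rps3a and Rps27l are shown because their order of groups differed from that of most members.

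The promoter table held 35 of the 39 genes, matched by gene number, and Rps29 was among those it did not hold. Within 25 bases either side of the annotated start, on the gene's own strand, 26 of the 35 genes (74.3%) had a run of at least 8 C or T. Of all 27457 promoters in the table, 5308 (19.3%) had one. The letters CTTTCC, which can lie inside such a run, were present in that window in 11 of 35 ribosomal protein genes (31.4%) and in 622 of all promoters (2.27%). Changes were then set beside the run. In cultured ovaries against P0 the median log2 change was -0.4 for the 26 genes with a run and -0.31 for the 9 without one, and in P4 ovaries against P0 it was -0.34 and -0.41. These medians are descriptions with no test.

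Nearly all ribosomal protein genes had lower intensities in cultured and in P4 ovaries than in P0 ovaries when the values were taken as deposited. Of the 39 genes, 37 were lower in both, on the brightest probe set of each gene. The median gene had 77.2% of its P0 intensity in cultured ovaries and 78.5% in P4 ovaries, and cultured ovaries had 96.3% of the P4 intensity. Summed over the 39 genes, the intensity was 119380 and 117760 on the cultured arrays, 126690 and 121040 on the P4 arrays, and 159280 and 158230 on the P0 arrays. The 3 groups did not overlap in this sum, and the gap between P4 and P0 was wider than that between cultured and P4. All 57 tested probe sets together, with several for some genes, held a share of the non-control intensity on each array. It was 9.67% and 9.57% in cultured, 10% and 9.31% in P4, and 11.7% and 11.5% in P0 ovaries.

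**Figure D1:**
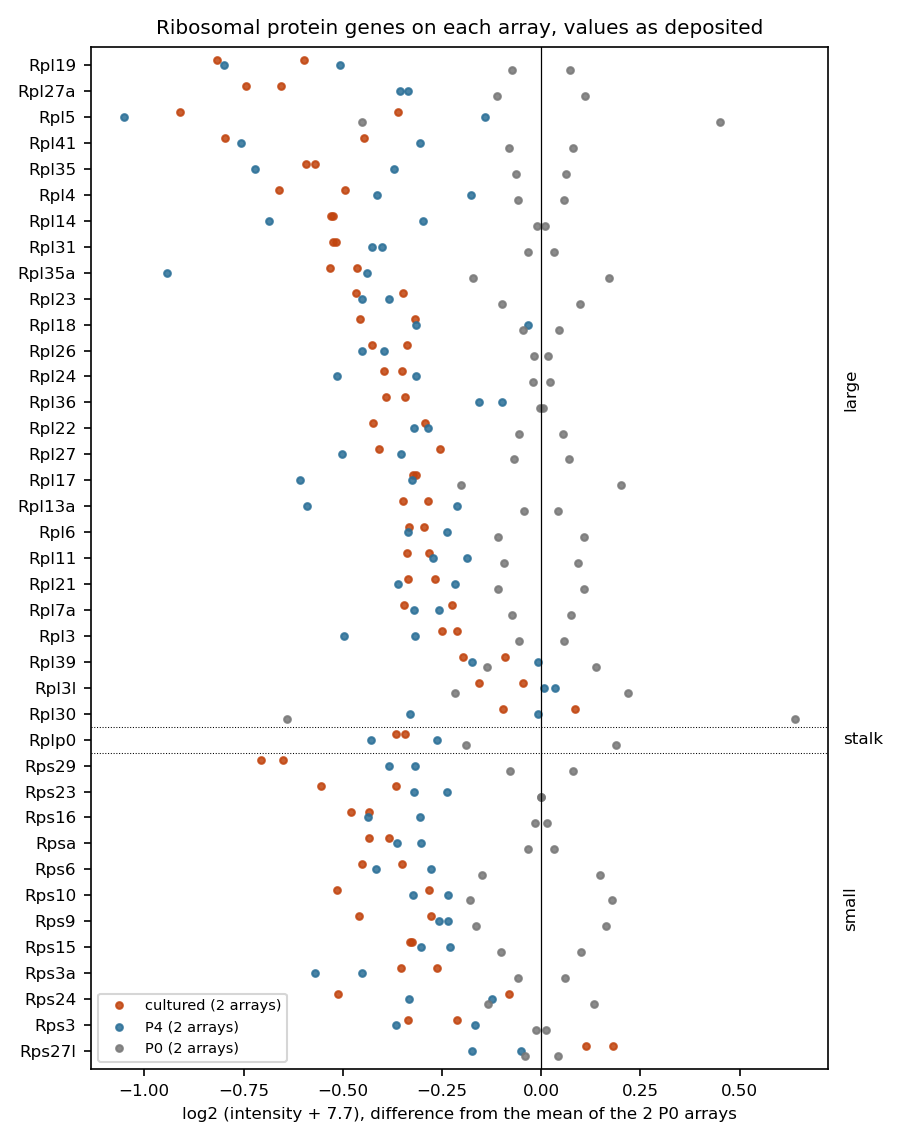
Each row is one of the 39 ribosomal protein genes, on its brightest probe set, grouped into large subunit, stalk and small subunit and ordered by the cultured change. Points are single arrays (2 a group), placed by log2 (intensity + 7.7) minus the mean of the 2 P0 arrays; most cultured and P4 points lie left of the P0 points, and Rps27l at the bottom has its cultured points to the right.

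This common shift depended on how the arrays were put on one scale, which bears on every result that follows. The deposited values had been scaled to the same trimmed mean, 125.2 on each array. Ribosomal protein probe sets are among the brightest on the array: 50 of the 57 tested lay in the brightest 10% (612 probe sets), and 18 lay in the brightest 1% (62 probe sets). A further 13 of those 62 probe sets listed a ribosomal protein among several symbols, or a copy. The very top of the arrays moved with the groups, and this move is therefore not independent of the ribosomal protein shift. The 99th percentile of intensity was 3746 and 3695 in cultured, 3990 and 4086 in P4, and 4656 and 4731 in P0 ovaries, while the 90th percentile was 560.6 and 535 in cultured, 543.1 and 551.4 in P4, and 538.4 and 542.5 in P0 ovaries. The groups thus did not overlap at the 99th percentile and did overlap at the 90th. With quantile normalization, which makes these percentiles equal, the median log2 change of the 39 genes was -0.0094 in cultured against P0 and -0.11 in P4 against P0.

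The 31 probe sets of the brightest 1% that listed no ribosomal protein are the nearest comparison in brightness. They include mitochondrial cytochrome oxidase transcripts, actin, thymosin beta 4 (Tmsb4x) and Hsp90ab1. The 20 of them that have no symbol could include ribosomal proteins. As deposited, all 31 were negative in cultured against P0 with a median log2 change of -0.42, and 27 were negative in P4 against P0 with a median of -0.16. The 39 ribosomal protein genes, 7 of which had a mean intensity under 1000, had medians of -0.37 and -0.34 in the same comparisons. For the 522 other probe sets of the brightest 10% the medians were -0.06 and 0.0084. In cultured ovaries the median of the ribosomal protein genes was thus not below that of the other probe sets in the brightest 1%, whereas in P4 ovaries it lay below the medians of both other sets. The part of array brightness in these shifts was not tested further.

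**Figure D2:**
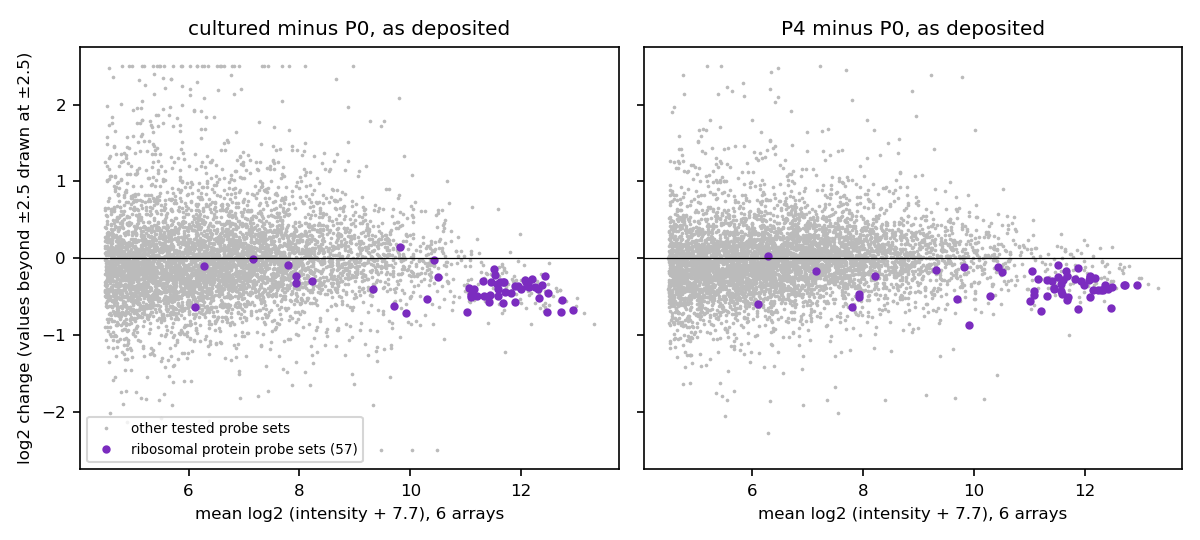
The log2 change of each tested probe set against its mean log2 (intensity + 7.7) over the 6 arrays, for cultured minus P0 on the left and P4 minus P0 on the right, as deposited. The 57 ribosomal protein probe sets (purple) lie mostly at the bright end and below 0 in both panels, among other bright probe sets (grey) that also lie below 0 on the left.

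The comparison of cultured with P0 ovaries asks how ribosomal protein transcripts stood after 7 days outside the body. As deposited, 6 of 57 probe sets were called lower (adjusted p under 0.05, limma, over all 6118 probe sets tested) and 0 higher, against 1.95% of all tested probe sets called lower. They belonged to 5 genes: Rps29 with both of its probe sets, Rpl27a, Rpl19, Rpl31, and the second probe set of Rpl35. At an unadjusted p under 0.05, 39 of 57 were lower and 0 higher, with a background of 10.5%. Both cultured arrays lay below both P0 arrays for 48 of 57 probe sets, with a background of 29%. With quantile normalization 0 of 57 were called (background 1.23%), 3 were lower at an unadjusted p under 0.05 (background 8.89%), and 19 did not overlap and were lower (background 27.6%). On that scale 21 of 39 genes were negative, so the direction was close to evenly split. The 7 genes with a mean intensity under 1000 differed little between the scales. As deposited, Rpl41, Rpl5, Rpl17 and Rps24 had -0.62, -0.64, -0.32 and -0.30, and with quantile normalization -0.62, -0.60, -0.38 and -0.35. Rpl30, Rpl3l and Rps27l had -0.036, -0.066 and 0.18 with quantile normalization. None of the 7 passed on either scale.

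Among large subunit genes, Rpl27a had intensities of 5416.3 and 5095 in cultured ovaries, 6670 and 6770.8 in P4 ovaries, and 9223.5 and 7909 in P0 ovaries. No array of one group overlapped those of another. Its log2 change in cultured against P0 was -0.70 (SE 0.118, adjusted p = 0.0109), and -0.20 with quantile normalization (adjusted p = 0.349). Rpl19, whose long helix forms a bridge between the subunits, had 5134 and 4409.4 in cultured ovaries, 5465 and 4461.9 in P4 ovaries, and 8179.5 and 7384 in P0 ovaries. The cultured and P4 arrays of Rpl19 overlapped, and both groups lay below P0. Its change in cultured against P0 was -0.71 (SE 0.142, adjusted p = 0.0216), and -0.27 with quantile normalization (adjusted p = 0.336).

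Rpl31, a protein at the rim of the peptide exit tunnel, had 4427.7 and 4451.5 in cultured ovaries, 4741.6 and 4825.5 in P4 ovaries, and 6233.2 and 6517.2 in P0 ovaries. The replicates lay close together and the 3 groups did not overlap. The change of Rpl31 in cultured against P0 was -0.52 (SE 0.112, adjusted p = 0.029), and -0.10 with quantile normalization (adjusted p = 0.626). Rpl35, another protein near the tunnel exit, was called on its second probe set (-0.70, adjusted p = 0.0396) but not on its brightest one (-0.58, adjusted p = 0.0584). Rpl4, which lines the tunnel, had -0.58 (adjusted p = 0.054) and did not pass. Rpl5, which carries the 5S ribosomal RNA together with Rpl11, was dim on the probe set that names it alone. Rpl5 had 41.1 and 63.8 in cultured ovaries, 75.5 and 36.6 in P4 ovaries, and 117.7 and 59.4 in P0 ovaries, and its change in cultured against P0 of -0.64 had an SE of 0.386 and did not pass (adjusted p = 0.399). A brighter probe set that lists Rpl5 together with Rpl5l1 was lower in cultured than in P0 ovaries, with a change of -0.65 (adjusted p = 0.0307).

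Among small subunit genes, Rps29, a zinc-binding protein, had the smallest adjusted p of all members. Its intensities were 6352.4 and 6109.5 in cultured ovaries, 7648.9 and 8004.6 in P4 ovaries, and 10537.4 and 9442 in P0 ovaries. The 3 groups did not overlap, with cultured lowest and P0 highest. Its change in cultured against P0 was -0.68 (SE 0.109, adjusted p = 0.00914) on the brightest probe set and -0.55 (SE 0.121, adjusted p = 0.0315) on the other. With quantile normalization the brightest probe set of Rps29 changed by -0.07 (adjusted p = 0.726). On that scale the other one changed by 0.033 (adjusted p = 0.898), with both cultured arrays above both P0 arrays. Rps16, whose tail reaches the peptidyl-tRNA, had 4978.9 and 5144.3 in cultured ovaries, 5127.7 and 5620.3 in P4 ovaries, and 6869.5 and 7023.1 in P0 ovaries. Rps16 missed the threshold in cultured against P0 (-0.46, adjusted p = 0.0503), though neither of its cultured arrays reached a P0 array.

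Rps6, the target of the S6 kinases, had 3542.5 and 3796.1 in cultured ovaries, 3999.2 and 3629.8 in P4 ovaries, and 5374.5 and 4370.7 in P0 ovaries. Its cultured and P4 arrays overlapped and both lay below P0, with changes of -0.40 (adjusted p = 0.143) in cultured and -0.35 (adjusted p = 0.332) in P4 against P0. Rpsa, also known as the laminin receptor precursor, had 2781.7 and 2688.6 in cultured ovaries, 2945 and 2824.3 in P4 ovaries, and 3553.4 and 3716 in P0 ovaries, so the groups did not overlap. Its change in cultured against P0 was -0.41 (adjusted p = 0.103). Rplp0, the base of the stalk that receives the elongation factors, had 4895.6 and 4816.2 in cultured ovaries, 4615.3 and 5181.4 in P4 ovaries, and 5451.2 and 7079.8 in P0 ovaries. The cultured values of Rplp0 lay within the range of its P4 values, and its changes against P0 were -0.36 in cultured (adjusted p = 0.206) and -0.34 in P4 (adjusted p = 0.357). With quantile normalization they were 0.066 and -0.11, so the sign in culture turned.

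Each of the 4 genes called on its brightest probe set lost its call without either cultured array, in fits that assume the lone cultured array to vary like the other groups. The changes stayed negative, at -0.71 and -0.65 for Rps29, -0.74 and -0.66 for Rpl27a, -0.82 and -0.60 for Rpl19, and -0.52 and -0.53 for Rpl31, without cultured replicate 1 and 2 in turn. Without cultured replicate 1 the adjusted p was 0.0693 for Rps29, 0.0743 for Rpl27a, 0.081 for Rpl19 and 0.153 for Rpl31, and without cultured replicate 2 it was 0.0936, 0.109, 0.18 and 0.158 in the same order. Rpl31 also lost its call without P0 replicate 1 (0.0675) or P0 replicate 2 (0.103), and Rpl19 without P0 replicate 1 (0.0843). The count of members called lower was 0 without either cultured array, 2 without P0 replicate 1, 4 without P0 replicate 2 and 10 without either P4 array. Each cultured array had a chip batch of its own, which held no P0 or P4 array. Culture and chip batch therefore cannot be told apart. Nor can culture and age, since no group held uncultured ovaries 7 days after birth. With the batch as a random block the count was 6, but such a block cannot separate culture from chip batch.

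**Figure D3:**
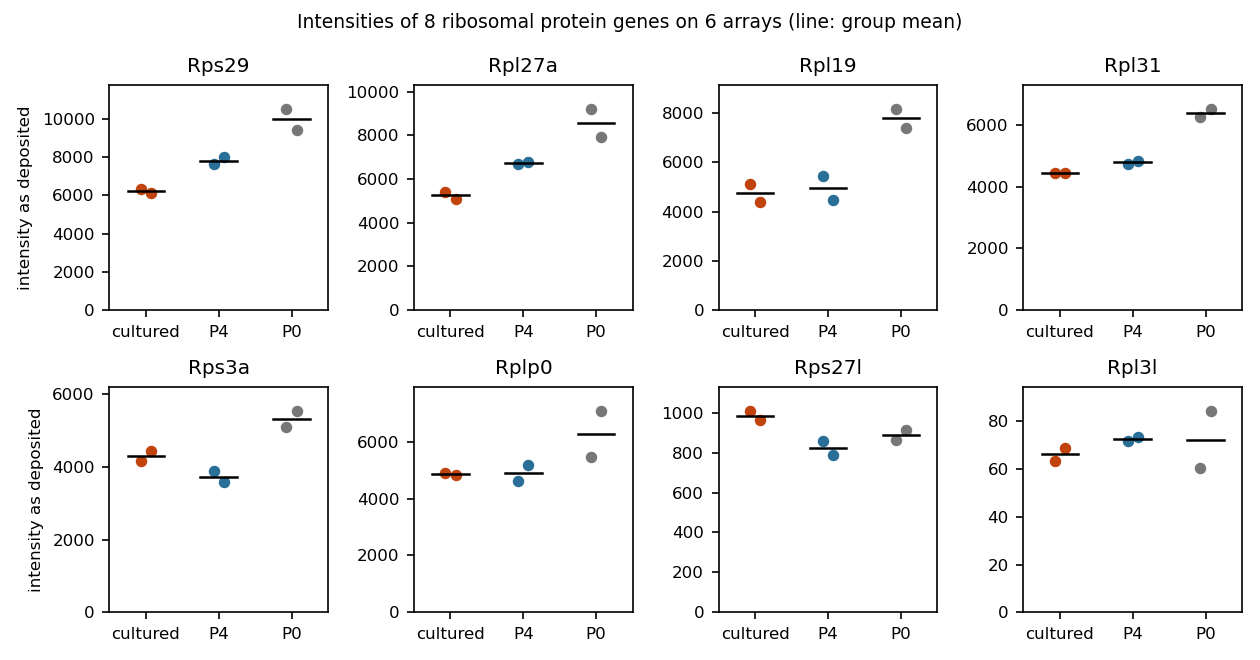
Intensity as deposited (linear scale from 0) of 8 ribosomal protein genes on the 2 arrays of each group, cultured, P4 and P0 from left to right; points are arrays and lines are group means. Rps29, Rpl27a and Rpl31 have their lowest points in culture and their highest at P0, Rps3a is lowest at P4, Rps27l is highest in culture, and Rpl3l stays between 60.4 and 84.4.

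The comparison of P4 with P0 ovaries covers the days in which primordial follicles form. As deposited, 0 of 57 probe sets were called by limma in either direction, with 0.229% of all probe sets called lower and 0.85% called higher. At an unadjusted p under 0.05, 31 of 57 were lower and 0 higher (background 6.46% lower). Both P4 arrays lay below both P0 arrays for 48 of 57 probe sets (background 25.7%). The median log2 change of the 39 genes was -0.34, with quartiles of -0.42 and -0.27, against -0.054 for all tested probe sets, and 38 of 39 genes were negative. With quantile normalization 32 of 39 were negative, 27 of 57 probe sets were lower without overlap (background 22%), and 10 were lower at an unadjusted p under 0.05 (background 4.97%).

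The chip identifiers place replicate 1 of P4 and P0 in one batch and replicate 2 of both in another, so the comparison could be made within each. The median log2 change of P4 against P0 was -0.32 in the first batch and -0.38 in the second, with 37 of 39 genes lower in each. With quantile normalization the medians were -0.066 and -0.17, with 29 and 33 genes lower. With the batch as a replicate block, 4 of 57 probe sets were called lower (background 1.96%), and with the batch as a random block over all 6 arrays 13 were (background 2.11%). The 4 were those of Rpl19, Rpl35a, and further probe sets of Rpl26 and Rps15.

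Rpl19 had the smallest adjusted p at P4, with a log2 change against P0 of -0.65 (SE 0.142, adjusted p = 0.0687) that passed with the replicate block as deposited (adjusted p = 0.0308) but not with quantile normalization as well (adjusted p = 0.0703). Rpl35a, a large subunit protein, had 2146.8 and 2254.1 in cultured ovaries, 2293.2 and 1615 in P4 ovaries, and 3503.8 and 2760.4 in P0 ovaries. Its P4 arrays lay on either side of the cultured ones and below P0. Its change at P4 was -0.69 (SE 0.193, adjusted p = 0.146), and it passed with the replicate block both as deposited (adjusted p = 0.0298) and with quantile normalization (-0.53, adjusted p = 0.0249). Rpl26, a protein near the tunnel exit, had changes at P4 of -0.42 and -0.66 on its 2 probe sets, of which the second passed with the block as deposited (adjusted p = 0.042) but not with quantile normalization as well (adjusted p = 0.0888). Rps15 was uneven: its 3 probe sets ranged from -0.87 to -0.16 at P4, and the one at -0.87, with 1165.8 and 490.1 in P4 ovaries and 1945.5 and 994.1 in P0 ovaries, passed with the block as deposited (adjusted p = 0.0137) and with quantile normalization (adjusted p = 0.00484). The P4 and P0 arrays of that probe set overlapped, and its 2 P0 arrays differed from each other by more than the group means did.

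Rps3a, a small subunit protein, followed another order. It had 4149.9 and 4423 in cultured ovaries, 3876 and 3575 in P4 ovaries, and 5091.1 and 5529.8 in P0 ovaries. The groups did not overlap and P4 was lowest. The brightest probe sets of Rpl3 and Rpl17 had the same order without overlap, for Rpl17 by 226.1 in culture against 226 at P4. On the other probe set of Rpl3, cultured lay below P4. The change of Rps3a at P4 against P0 was -0.51 (SE 0.123, adjusted p = 0.101), which passed with the chip batch as a random block (adjusted p = 0.0231). In cultured against P4 it was 0.20 (SE 0.123, adjusted p = 0.544).

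As deposited, the median change was smaller in cultured against P4 than in either against P0, and the comparisons with P0 share the same P0 arrays. With quantile normalization that order did not hold, since the median was 0.052 in cultured against P4 and -0.0094 in cultured against P0. In cultured against P4, 0 of 57 probe sets were called by limma (0.621% of all tested were called lower), 2 were lower at an unadjusted p under 0.05 (background 6.39%) and 17 were lower without overlap (background 24.5%). The median log2 change was -0.051 as deposited, with 27 of 39 genes negative, and with quantile normalization 28 of 39 were positive. The direction thus turned with the scale. As deposited, the most negative changes in cultured against P4 were those of Rpl27a (-0.35, adjusted p = 0.189), Rps29 (-0.33, adjusted p = 0.188), Rpl4 (-0.28, adjusted p = 0.446) and Rpl36 of the large subunit (-0.24, adjusted p = 0.426). With quantile normalization they were -0.086 for Rpl27a, 0.066 for Rps29, -0.23 for Rpl4 and -0.13 for Rpl36, and none passed.

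**Figure D4:**
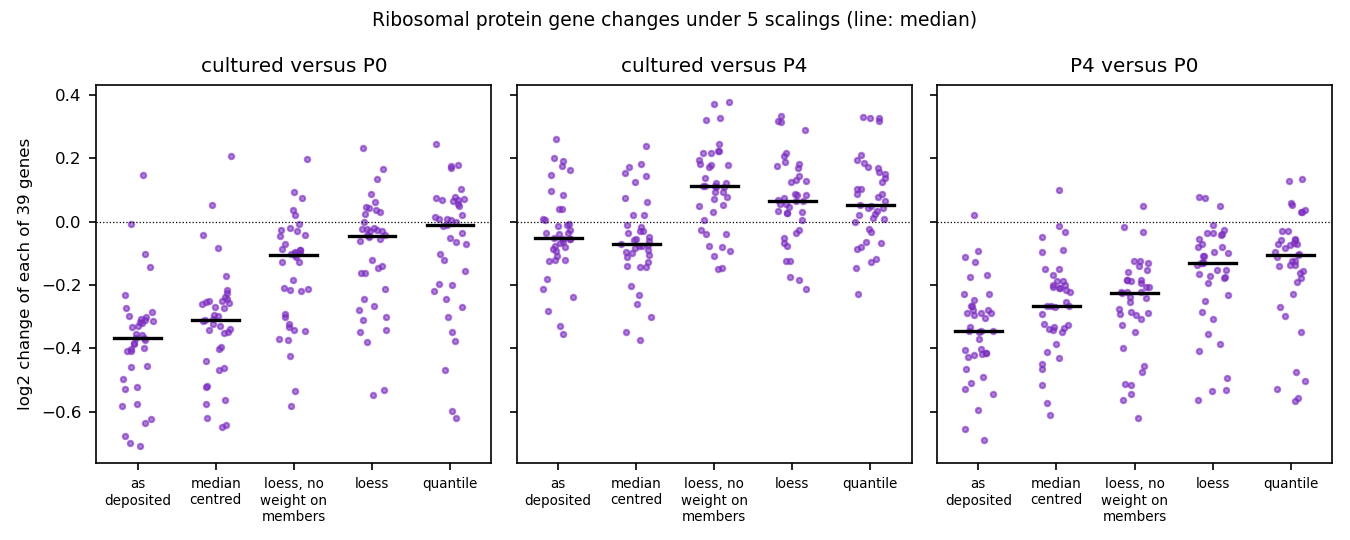
Log2 change of each of the 39 ribosomal protein genes (points; line at the median) in cultured against P0, cultured against P4 and P4 against P0, under 5 ways of scaling the arrays. Against P0 the medians move towards 0 from left to right in both outer panels, to -0.0094 for cultured and -0.11 for P4, and in the middle panel the median is negative as deposited and with median centring, and positive with both loess fits and with quantile normalization.

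Rps27l and Rpl3l stood apart from the common shift, and Rpl30 varied too much to place. Rps27l, a variant of the small subunit protein Rps27 known in human cells as a p53 target, had 1008.3 and 961.6 in cultured ovaries, 857.5 and 785.4 in P4 ovaries, and 862.6 and 914 in P0 ovaries. On the brightest probe sets as deposited, it was the only gene whose cultured arrays both lay above both P0 arrays. With quantile normalization Rpl3, Rps3 and Rps3a did too, as did the second probe set of Rps29. The change of Rps27l as deposited was 0.15 against P0 (SE 0.163, adjusted p = 0.663) and 0.26 against P4 (adjusted p = 0.559). Neither passed. Rpl3l, the striated muscle counterpart of Rpl3, had 63.3 and 69 in cultured ovaries, 71.9 and 73.5 in P4 ovaries, and 60.4 and 84.4 in P0 ovaries, with both other groups inside the P0 range. Rpl30 had 131.2 and 149.9 in cultured ovaries, 140 and 110.5 in P4 ovaries, and 223.7 and 87.7 in P0 ovaries, and its 2 P0 arrays lay further apart than any difference between groups. A brighter probe set outside the rule, which lists Rpl30 with its copies, had changes against P0 of -0.42 in cultured (adjusted p = 0.13) and -0.40 in P4 (adjusted p = 0.259), and neither passed. Rpl39, which lines the exit tunnel, had the smallest changes among the bright large subunit genes, -0.14 in cultured and -0.09 in P4 against P0 (adjusted p = 0.641 and 0.869), and both turned positive with quantile normalization, at 0.17 and 0.14.

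Both subunits shared the shift against P0 as deposited. The 26 large subunit genes had median changes of -0.37 in cultured and -0.40 in P4 against P0, and the 12 small subunit genes had -0.38 and -0.28. Of the 42 tested probe sets outside the rule that list a ribosomal protein or a copy, 7 were called lower in cultured against P0 (background 1.95%) and 0 in P4 by limma, where 26 were lower at an unadjusted p under 0.05 (background 6.46%). With quantile normalization 0 of the 42 were called lower in cultured against P0 (background 1.23%). Their medians were -0.39 in cultured and -0.37 in P4 as deposited, and -0.028 and -0.13 with quantile normalization. For 14 of the 15 genes with more than 1 tested probe set, the changes of the probe sets in each comparison with P0 lay within 0.42 of each other, and Rps15 was the exception.

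Other genes of translation did not all share the shift. Of 4 genes of translation elongation (Eef1a1, Eef1g, Eef2 and the kinase Eef2k), 1 was called lower in cultured ovaries: Eef1a1, which delivers aminoacyl-tRNA, had 2613.6 and 2448.6 in cultured ovaries, 3283 and 2850.2 in P4 ovaries, and 4230.9 and 3487.5 in P0 ovaries. Its change in cultured against P0 was -0.60 (adjusted p = 0.0494) and -0.24 with quantile normalization (adjusted p = 0.407). Eef1g was also lower at an unadjusted p under 0.05, with changes of -0.54 in cultured and -0.40 in P4 against P0. All 4 genes were negative in both comparisons as deposited, and Eef1a1, Eef1g and Eef2 were bright, as most members were. None of 19 genes of initiation factors and their regulators was called by limma in any comparison. At an unadjusted p under 0.05, 2 were lower and 2 higher both in cultured and in P4 against P0. The background of lower probe sets at that threshold was 10.5% in cultured and 6.46% in P4, and the 2 of 19 lower in cultured were near it. The background of higher ones is not given here. The medians of the 19 genes were -0.07 in cultured and -0.012 in P4 against P0. None of 14 mitochondrial ribosomal protein genes was called by limma. At an unadjusted p under 0.05, 1 was lower (background 10.5%) and 1 higher in cultured against P0. In P4 against P0, 2 were lower (background 6.46%) and 1 higher. They had medians of 0.083 and -0.067 in the same comparisons. The ribosomal protein medians of -0.37 and -0.34 were thus not shared by the proteins of the mitochondrial ribosome. Their probe sets, and those of the initiation genes, were dimmer than most members.

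Of 9 genes of ribosome biogenesis, 1 was called by limma. At an unadjusted p under 0.05, 2 were lower (background 10.5%) and 1 higher in cultured against P0. In P4 against P0, 1 was lower (background 6.46%) and 2 higher. The lower ones were Dkc1, the pseudouridine synthase of ribosomal RNA (-0.68, adjusted p = 0.0855), and nucleostemin (Gnl3; -0.52, adjusted p = 0.222) in cultured, and the polymerase subunit Polr1d (-0.86, adjusted p = 0.101) in P4. Polr1a, the largest subunit of RNA polymerase I, had 39.9 and 31.4 in cultured ovaries, 43.9 and 37.1 in P4 ovaries, and 9 and 9.1 in P0 ovaries. It was called higher in both against P0, by 1.37 in cultured (adjusted p = 0.0231, with 3.48% of all probe sets called higher) and 1.52 in P4 (adjusted p = 0.0401), and its P0 values lay near the pseudocount of 7.7. Nucleolin (Ncl) had 1171.3 and 1063.4 in cultured ovaries, 1626.6 and 1707 in P4 ovaries, and 1402 and 1388.1 in P0 ovaries, with a change of -0.58 in cultured against P4 (adjusted p = 0.0927) and of -0.32 in cultured against P0 (adjusted p = 0.271). None of Rack1 and Naca, which bind ribosomes, and the histone chaperone Nap1l1 was called by limma, and at an unadjusted p under 0.05 Nap1l1 was lower in cultured and in P4 than in P0. None of 9 genes of S6 kinase and mTOR signalling was called by limma. At an unadjusted p under 0.05, Rheb, the activator of mTOR, was higher and the transcription factor Mycn lower (background 10.5%) in cultured than in P0. In P4 against P0, 0 of the 9 passed.

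Marker genes of several other cell types also differed between the groups, though not every marker or cell type did. Summed over 6 erythroid genes, intensity was 273.2 and 243.4 in cultured, 4496.7 and 3417.8 in P4, and 6084.4 and 6262.4 in P0 ovaries, and 3 of the 6 were called lower in cultured than in P0 (background 1.95%). The 10 macrophage and leukocyte genes summed to 4248.1 and 2107.6 in cultured, 383.9 and 476.5 in P4, and 609.3 and 725.2 in P0 ovaries, and 7 of the 10 were called higher in cultured than in P0 (background 3.48%). The 6 oocyte genes summed to 3277.2 and 3177.2 in cultured, 4013.4 and 4339.1 in P4, and 1306 and 1357.2 in P0 ovaries. The zona pellucida genes Zp1, Zp2 and Zp3 were called higher in cultured (background 3.48%) and in P4 (background 0.85%) than in P0, while Ddx4, a marker of all germ cells, had changes of -0.33 and 0.026 in the same comparisons and was not called. The 3 meiotic prophase genes summed to 92.8 and 96.4, 120.8 and 116.1, and 536.5 and 318.9 in the order cultured, P4 and P0. Sycp1 and Sycp3 were called lower in both against P0 (background 1.95% in cultured and 0.229% in P4), and Sycp2 was not called. The 7 granulosa genes summed to 1197.5 and 1317.2 in cultured, 3840.9 and 2862.5 in P4, and 1726.2 and 1743.1 in P0 ovaries. Of these, Inha, Serpine2 and Cyp19a1 were called higher in P4 than in P0 (background 0.85%). Amh (1.21, adjusted p = 0.0506), Fshr (0.33) and Inhba (0.055) were not called in that comparison. Fst went the other way at P4 against P0 without a call (-0.91, adjusted p = 0.101). It was called lower in cultured than in P0 (-1.64, adjusted p = 0.00407, background 1.95%). The 5 adipocyte genes summed to 1698.7 and 2218.9 in cultured, 890 and 875.7 in P4, and 880.7 and 725.5 in P0 ovaries. Of the 5, 3 were called higher in cultured than in P0 (background 3.48%). Lep, the brightest of them at P0 and P4, was lower in cultured than in P0 (-0.44, adjusted p = 0.21). It was not called, and neither was Pparg (0.78, adjusted p = 0.188). The 7 smooth muscle genes summed to 2035.8 and 1002.9 in cultured, 1692 and 2045.5 in P4, and 1384.6 and 1643.6 in P0 ovaries. The 3 endothelial genes summed to 154.8 to 270.7 over the 6 arrays. None of these smooth muscle and endothelial genes was called by limma in any comparison. Oocyte and granulosa markers were present in every group, as the labelled tissue holds both. The part of these cell types in the ribosomal protein shift was not tested.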

How the data were processed

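Total RNA was hybridized to 6 one-colour arrays. Per the labels' protocols each carried RNA of a separate ovary pool. The deposited table holds linear probe set intensities, scaled by the authors to one mean trimmed by 2% at each end, as the values show; the summarization method is not given in the sources used here. Values were used as deposited, as log2(intensity + 7.7), where 7.7 is the 20th percentile of all values. Of 8740 non-control probe sets, 2622 with a mean under the 30th percentile were left out. One limma 3.58.1 model (R 4.3.3) with 3 group means and an intensity trend was fitted to 6118 probe sets, with Benjamini-Hochberg adjustment over all of them and a threshold of 0.05. Fold changes are on this log2 scale, which understates those of dim genes. The number of arrays limits the precision.

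Probe sets were named from the platform annotation: 7018 had 1 symbol, 308 several and 1473 none; 38 of 39 member genes matched RefSeq by gene number, and Rps9 keeps the annotation's symbol. The brightest probe set stands for a gene. Named were genes called on either scale, the 5 smallest p-values and the 3 most negative and positive changes in each comparison, and Rplp0, Rpsa and Rps6, plus called members and the leading members of other translation lists. Members and lists were chosen with earlier results of these data known. Alternatives were quantile normalization, median centring, other pseudocounts and filters, no trend, batch blocks, leaving out each array, and cyclic loess, the last chosen after seeing the data. The replicate numbers of P4 and P0 share a chip batch, from the chip identifiers, and deviations of same-numbered arrays correlated at 0.33. The fit was tested on simulated data.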

Additional observations from a re-analysis of the deposited data

How the results depend on the processing

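Precision is limited by 2 arrays a group and by the scale of the brightest probe sets. The median log2 change of the 39 genes was -0.37 in cultured against P0 as deposited, -0.31 with median centring, -0.0094 with quantile normalization, -0.044 with cyclic loess and -0.11 with a cyclic loess that gave ribosomal protein probe sets no weight. In P4 against P0 it was -0.34 as deposited, -0.27 with median centring, -0.11 with quantile normalization with or without the block, -0.13 with cyclic loess and -0.23 with that loess without their weight. In cultured against P4 it was -0.051 as deposited, 0.052 with quantile normalization, 0.066 with cyclic loess and 0.11 with that loess without their weight. Leaving out each array gave -0.40 to -0.35, -0.36 to -0.30 and -0.086 to 0.015 in these 3 comparisons, and the last turned positive without P4 replicate 1. The cause of these shifts was not tested.

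Members called lower in cultured against P0 numbered 6 as deposited, 2 with median centring and 0 with quantile normalization, no filter, no intensity trend or either loess, and 0 to 10 when each array was left out. Members called lower in P4 against P0 numbered 0 (background 0.229%), but 4 with the replicate block (background 1.96%) and 13 with the random block (background 2.11%). With the replicate block and quantile normalization they numbered 4 again, but not the same 4. Those of Rpl35a and Rps15 stayed, and those of Rpl19 and Rpl26 did not. The share of all probe sets called lower in that last fit was not counted. Of all probe sets, 332 were called in cultured against P0 (90 to 353 when each array was left out), 170 in cultured against P4 (86 to 193) and 66 in P4 against P0 (15 to 55). That last count was 23 with no filter, 29 with no intensity trend, 335 with the random block, 314 with the replicate block and 415 with the block and quantile normalization. Members called higher numbered 0 under every alternative run. No named gene reversed a call. In P4 against P0, the replicate block brought Rpl19 and Rpl35a past the threshold among the named genes, and the random block brought Rpl19 (adjusted p = 0.0108), Rpl26 (0.0363), Rpl31 (0.0342), Rpl35 (0.0303), Rpl35a (0.0258) and Rps3a (0.0231). In cultured against P0, Rpl35, Rpl4 and Rps16 passed with the stricter filter on dim probe sets (0.0493, 0.0471 and 0.036) and without either P4 array (0.0291 to 0.0461), and Rps16 also with the larger pseudocount (0.0429).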
